A study of Homo sapiens with 4 samples.

Results

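The genes described here are 10 that write, remove or read DNA methylation: DNMT1, UHRF1, HELLS, DNMT3A, DNMT3B, TET1, TET2, TET3, TDG and MBD3. They were chosen by name because DNA methylation is the theme of the study, and each name stood on its own row among the 57014 named rows of the count table. All 10 passed the filter on low counts, among 18043 genes tested. The libraries came from 22Rv1, an established human prostate cancer line grown in RPMI-1640 with fetal bovine serum. The CD276 knockout group had 2 libraries, replicates 1 and 3, whose names carry a guide against CD276, the gene of the surface protein B7-H3. The control group had 2 libraries, replicates 1 and 3, labelled wild type and named for a guide against GFP, a gene human cells lack. The replicates are described as biological, but the labels give neither what separated them nor whether the edited cells are a clone or a pool, so p-values reflect only how far these libraries spread. The comparison asks what differs in the transcriptome when CD276 is disrupted. Here it is read for the methylation machinery, as RNA levels only, since DNA methylation itself was not measured in these counts.

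Methyl groups are placed on the cytosine of CG pairs (CpG) and are tied to gene silencing, above all at CpG-rich promoters. After replication, UHRF1 recognises CpG sites methylated on the old strand alone and recruits DNMT1, which copies the mark, while HELLS, a chromatin remodeller, opens nucleosomal DNA to the methyltransferases. DNMT3A and DNMT3B methylate unmarked sites. The TET dioxygenases oxidise methylated cytosine using oxygen, iron and 2-oxoglutarate, TDG cuts out the most oxidised forms, and base excision repair then restores cytosine. MBD3 belongs to the methyl-CpG binding family but, in mammals, binds methylated DNA weakly and acts as a subunit of the NuRD remodelling and deacetylase complex.

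The promoters of 4 members are shown because HELLS and MBD3 were the members that changed, and DNMT1 and UHRF1 act with HELLS in maintenance. Each line gives the 250 bases before a transcript start in the RefSeq table (GRCh38.p14), 5′ to 3′ on the gene's own strand. Capitals mark matches to the E2F motif, taken as TTTCCCGC, TTTCGCGC, TTTGCCGC or TTTGGCGC on either strand. The windows are chr10:94545538-94545787 (plus strand) for HELLS, chr19:4909894-4910143 (plus strand) for UHRF1, chr19:10194954-10195203 (minus strand) for DNMT1 and chr19:1592866-1593115 (minus strand) for MBD3.
HELLS: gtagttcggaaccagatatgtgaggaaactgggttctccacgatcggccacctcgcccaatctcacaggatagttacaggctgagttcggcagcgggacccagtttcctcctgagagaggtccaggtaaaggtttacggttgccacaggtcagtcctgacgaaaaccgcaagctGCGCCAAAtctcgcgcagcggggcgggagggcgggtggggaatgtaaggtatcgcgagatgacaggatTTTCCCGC
UHRF1: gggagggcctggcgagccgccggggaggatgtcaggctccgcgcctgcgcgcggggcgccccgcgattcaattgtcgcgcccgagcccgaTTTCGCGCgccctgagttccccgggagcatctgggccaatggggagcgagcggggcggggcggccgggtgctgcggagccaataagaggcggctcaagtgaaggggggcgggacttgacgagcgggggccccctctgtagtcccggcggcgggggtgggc
DNMT1: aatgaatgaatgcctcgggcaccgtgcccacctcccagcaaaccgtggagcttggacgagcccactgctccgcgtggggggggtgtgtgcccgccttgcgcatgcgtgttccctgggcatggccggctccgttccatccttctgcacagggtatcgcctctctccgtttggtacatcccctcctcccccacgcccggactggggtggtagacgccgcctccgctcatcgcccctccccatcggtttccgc
MBD3: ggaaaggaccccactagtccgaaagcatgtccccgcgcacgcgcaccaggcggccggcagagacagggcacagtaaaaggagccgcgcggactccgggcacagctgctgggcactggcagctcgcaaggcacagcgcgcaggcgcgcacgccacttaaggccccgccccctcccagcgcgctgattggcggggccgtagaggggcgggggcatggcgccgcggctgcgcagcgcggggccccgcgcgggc
HELLS held 2 E2F matches, 76 to 69 and 8 to 1 bases before the start, which do not overlap. UHRF1 has 3 annotated starts in the table, and 2 of its 3 windows held a match, that of the printed window lying 160 to 153 bases before the start. No match stood in the window of DNMT1 or MBD3. Of all 35114 windows of the same length, 2.79% held a match, and of the 21 windows of the 10 members, 3 did. Those 3 belong to 2 members, HELLS and UHRF1. Windows of the same gene can overlap, so they do not count as separate promoters. CpG pairs numbered 18 in the HELLS window, 32 in that of UHRF1, 21 in that of DNMT1 and 32 in that of MBD3, against a median of 11 over all windows. In the 21 member windows, 16 had more CpG pairs than that median, while the DNMT3B window had 3. These matches describe letters and do not show binding.

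The deposited counts of named genes summed to 24437926 and 25802417 in knockout replicates 1 and 3 and to 23206271 and 20079050 in control replicates 1 and 3. Levels below are CPM, counts scaled to 1000000 per library after adjustment by trimmed mean of M-values. The quasi-likelihood test of edgeR was run on every gene that passed the filter, and a gene is called changed at a p under 0.05 after Benjamini-Hochberg adjustment across them. By that rule 22.8% of all genes were called, 9.87% higher and 12.9% lower in the knockouts. Scaled by library totals alone, the same shares were 13% and 9.87%. CD276 itself had 621 and 679 counts in the knockouts and 1058 and 1054 in the controls, and it fell, by log2 fold change -1.03 ± 0.16 (SE; edgeR adjusted p = 0.00561; 0.0812 without control replicate 3). Transcripts named as mitochondrially encoded took 1.46% and 1.78% of knockout counts and 5.84% and 6.15% of control counts. Prostate luminal markers were present in every library, with a summed level of 2403 and 3070 normalized CPM in the knockouts and 3405 and 3292 in the controls. Of the 9 luminal markers only the keratin KRT18 changed, with 438 and 593.5 normalized CPM in the knockouts and 854 and 801 in the controls (log2 fold change -0.68 ± 0.19). The abundant luminal genes not called were KRT8, another keratin, at -0.43 ± 0.25, and FOLH1, prostate-specific membrane antigen, at 0.09 ± 0.16 on the log2 scale. Among 10 markers of other cells, CD3E and PECAM1 had 0 counts, and PTPRC, VWF, KRT5 and TP63 had 0 to 3 in any library. Their summed level ran from 131 to 152 normalized CPM in the knockouts and from 197 to 201 in the controls, most of it from SYP, a synaptic vesicle gene (111 and 119 in the knockouts and 142 and 150.5 in the controls). The collagen gene COL1A1 (-1.001 ± 0.21) and the granule gene CHGA (-1.46 ± 0.35) fell, and COL1A2 (0.61 ± 0.70) was not called. The part of these markers in the results below was not tested. Without either control, KRT18, COL1A1 and CHGA were no longer called (edgeR adjusted p from 0.0663 to 0.365).

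Maintenance methylation showed 1 changed gene of 3, where 22.8% of all genes were called. This was HELLS, which fell to 0.571 of its control level. HELLS (chromosome 10, 94501434 to 94613905, plus strand, GRCh38) had 2152 and 1718 counts in knockout replicates 1 and 3 and 3010 and 2425 in control replicates 1 and 3. Its level was 82.0 and 66.4 normalized CPM in the knockouts and 135 and 125 in the controls. Both knockouts lay below both controls, as did 34.1% of all genes tested. The log2 fold change of HELLS was -0.81 ± 0.15 (SE, n = 2 per group; edgeR adjusted p = 0.0097). Without control replicate 1 it was -0.76 (edgeR adjusted p = 0.166) and without control replicate 3 -0.86 (0.0864), so the call rests on having both controls. A non-coding gene on the same strand shares 4.32% of the exonic bases of HELLS and had 0 to 13 counts.

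DNMT1, the maintenance methyltransferase (chromosome 19, 10133345 to 10231286, minus strand), was lower in both knockouts than in both controls but was not called. Its level was 349 and 244 normalized CPM in knockout replicates 1 and 3 and 369.5 and 396 in control replicates 1 and 3. Knockout replicate 1 lay close under the lower control and knockout replicate 3 well below it. The log2 fold change was -0.37 ± 0.19 (edgeR adjusted p = 0.191). With offsets for the GC content and length of transcripts, it was -0.52 and passed (edgeR adjusted p = 0.0382). Set alone against the controls, knockout replicate 3 gave -0.64 and knockout replicate 1 gave -0.07. In such fits the spread comes from the controls alone, so p-values for a single knockout library are not given gene by gene.

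UHRF1 (chromosome 19, 4903080 to 4962154, plus strand) stood on both sides of the controls. It had 3099 and 1962 counts in knockout replicates 1 and 3 and 2136 and 2150 in control replicates 1 and 3. Normalized CPM were 118 and 75.8 in the knockouts and 95.7 and 111 in the controls. Knockout replicate 1 was above both controls and knockout replicate 3 below both. The log2 fold change over the group was -0.09 ± 0.21 (edgeR adjusted p = 0.78), and its sign depended on the scaling, at 0.03 with library totals alone. Set alone against the controls, the 2 knockout libraries gave log2 fold changes in opposite directions, 0.26 for replicate 1 and -0.43 for replicate 3.

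The ratio of HELLS to UHRF1 per kilobase within a library, which no scaling between libraries can change, was 0.352 and 0.444 in knockout replicates 1 and 3 and 0.714 and 0.572 in control replicates 1 and 3. The ratio of HELLS to DNMT1 was 0.227 and 0.263 in the knockouts and 0.352 and 0.305 in the controls. In both ratios the knockouts lay below the controls. UHRF1 to DNMT1 was 0.644 and 0.592 in the knockouts and 0.493 and 0.533 in the controls, so that here the knockouts lay above. These ratios are descriptions, with no test.

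**Figure D1:**
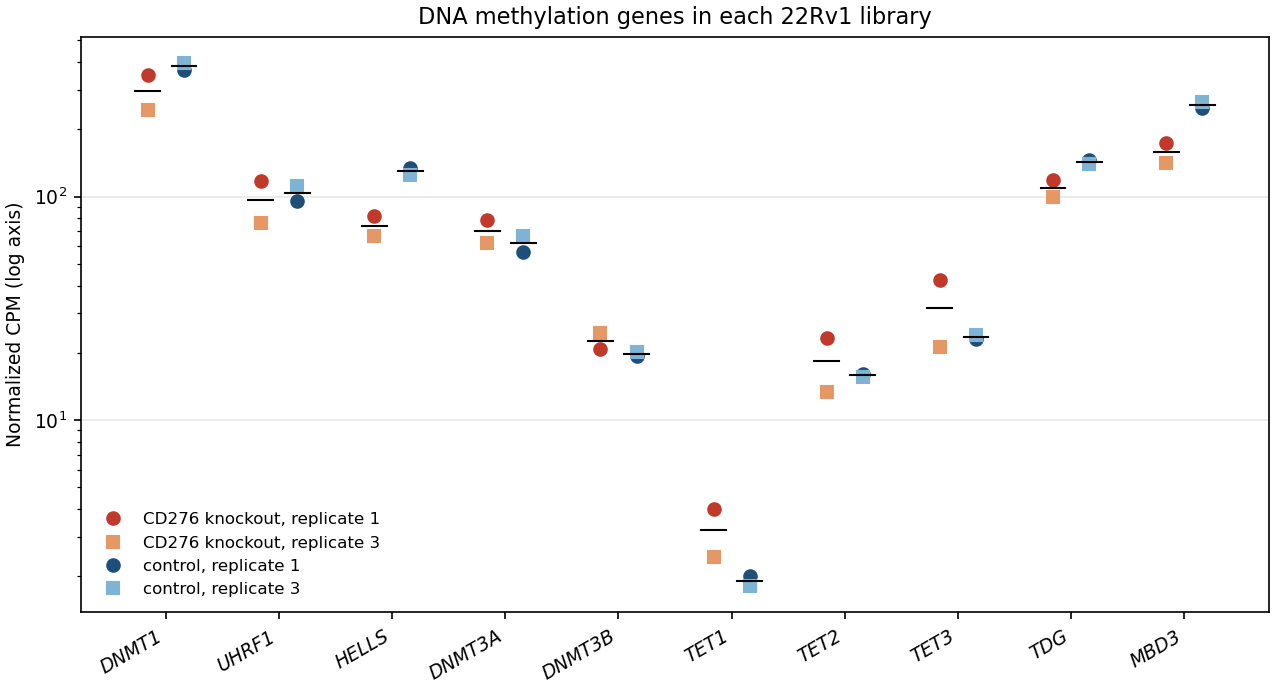
Normalized CPM (log axis) of the 10 genes in each library, with circles for replicate 1 and squares for replicate 3, CD276 knockouts left of controls, and a bar at each group's mean of 2 libraries. Both knockouts lie below both controls for DNMT1, HELLS, TDG and MBD3 and above them for DNMT3B and TET1, while the 2 knockout libraries of UHRF1, TET2 and TET3 fall on either side of the controls.

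Neither de novo methyltransferase passed the edgeR test, at an adjusted or an unadjusted p under 0.05, and DESeq2 called neither. DNMT3A (chromosome 2, 25227855 to 25342590, minus strand) had 2066 and 1606 counts in knockout replicates 1 and 3 and 1267 and 1293 in control replicates 1 and 3. Its normalized CPM were 78.7 and 62.1 in the knockouts and 56.7 and 66.8 in the controls, and the groups overlapped, since knockout replicate 3 lay between the controls. The log2 fold change was 0.19 ± 0.16 (edgeR adjusted p = 0.43). Set alone against the controls, knockout replicate 1 gave 0.42 for DNMT3A and knockout replicate 3 gave 0.02. DNMT3B (chromosome 20, 32762385 to 32809356, plus strand) had 548 and 634 counts in the knockouts and 434 and 390 in the controls. Its normalized CPM were 20.9 and 24.5 in the knockouts and 19.4 and 20.1 in the controls. Both knockouts were above both controls, by a margin that did not pass (log2 fold change 0.20 ± 0.17, edgeR adjusted p = 0.421). For DNMT3B knockout replicate 3 set alone against the controls gave 0.32, and knockout replicate 1 gave 0.15. DNMT3B was the only member with a lower level in knockout replicate 1 than in replicate 3. Per kilobase, the ratio of DNMT3A to DNMT3B was 1.45 and 0.976 in the knockouts and 1.13 and 1.28 in the controls, so that the knockouts lay outside the range of the controls on opposite sides. DNMT1 supplied 76.3% and 70.4% of the summed per-kilobase level of the 3 methyltransferases in the knockouts and 80.9% and 80.3% in the controls.

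None of the 4 erasers passed after adjustment in edgeR or in DESeq2, TDG alone had an unadjusted p under 0.05 in edgeR, and the TET genes differed most between the 2 knockout libraries. TET1 (chromosome 10, 68560656 to 68694482, plus strand) had 105 and 63 counts in knockout replicates 1 and 3 and 45 and 35 in control replicates 1 and 3. Both knockouts were above both controls. Its level was 3.999 and 2.44 normalized CPM in the knockouts and 2.02 and 1.81 in the controls, which gave 0.75 ± 0.36 on the log2 scale (edgeR adjusted p = 0.158). Set alone against the controls, knockout replicate 1 gave 1.13 for TET1 and knockout replicate 3 gave 0.36. The fold change of TET1 was the widest in error of the 10, on the fewest counts.

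TET2 (chromosome 4, 105145875 to 105279816, plus strand) stood at 23.3 and 13.4 normalized CPM in knockout replicates 1 and 3 and at 16.03 and 15.6 in control replicates 1 and 3. TET3 (chromosome 2, 73986404 to 74108176, plus strand) stood at 42.2 and 21.2 in the knockouts and 23.02 and 24.1 in the controls. For both genes knockout replicate 1 was above and knockout replicate 3 below both controls, an arrangement found in 5.98% of all genes tested. TET3 in knockout replicate 1 was 1.99 times its level in knockout replicate 3, the widest gap among the members. The log2 fold changes over the group were 0.21 ± 0.25 for TET2 (edgeR adjusted p = 0.581) and 0.43 ± 0.28 for TET3 (0.298). Without knockout replicate 1 both turned negative, to -0.23 for TET2 and -0.14 for TET3. Without knockout replicate 3 both were larger, at 0.62 for TET2 and 0.91 for TET3. The group mean of each gene lies between knockout libraries on opposite sides of the controls.

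TDG (chromosome 12, 103965804 to 103988874, plus strand), the glycosylase, had 3107 and 2573 counts in the knockouts and 3252 and 2696 in the controls. Its level was 118 and 99.5 normalized CPM in knockout replicates 1 and 3 and 146 and 139 in control replicates 1 and 3, with both knockouts below both controls. It missed the threshold (log2 fold change -0.39 ± 0.14, edgeR adjusted p = 0.0836) and passed with GC and length offsets (-0.60, edgeR adjusted p = 0.00871). TDGP1, a pseudogene named after it, had 1 to 6 counts in any library, and how reads matching both were counted is not stated. Set alone against the controls, knockout replicate 3 gave -0.51 for TDG and knockout replicate 1 gave -0.20.

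MBD3, the reader among the members, fell to 0.617 of its control level. It lies on chromosome 19 (1573596 to 1592801, minus strand) and had 4575 and 3660 counts in knockout replicates 1 and 3 and 5541 and 5109 in control replicates 1 and 3. Its level was 174 and 141.5 normalized CPM in the knockouts and 248 and 264 in the controls, so both knockouts were below both controls. The log2 fold change was -0.70 ± 0.15 (edgeR adjusted p = 0.0162). As for HELLS, the call was lost without control replicate 1 (-0.74, edgeR adjusted p = 0.195) or control replicate 3 (-0.65, 0.207), with the direction unchanged. Genes on the same and the opposite strand share 9.78% and 1.89% of its exonic bases but had 0 to 4 counts.

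In all, 0 members rose and 2 of 10 (20%) fell, beside the 22.8% of all genes called in either direction, so the share among the members lay near the background. Before adjustment, an edgeR p under 0.05 was reached by 3 lower members, the third being TDG, and by 0 higher ones, where 20.9% of all genes were lower and 17.9% higher by that rule. DESeq2 called 2 members lower and 0 higher, where it called 20.3% of all genes (10.3% higher and 9.99% lower). With GC and length offsets 4 members were called, all lower, against 24.3% of all genes (8% higher and 16.3% lower). Those offsets moved all genes by a median of -0.09 on the log2 scale. Without control replicate 1 or control replicate 3, edgeR called 0 members (2 lower at an unadjusted p under 0.05 in each case), and 1.65% and 3.15% of all genes. Without knockout replicate 1 it called 6 members, 1 higher and 5 lower, where 45.7% of all genes were called, and without knockout replicate 3 it called 7, 5 higher and 2 lower, where 48.3% were. The members' median log2 fold change was 0.05, beside -0.005 over all genes tested. Both knockouts lay on the same side of both controls for 6 members, against 65.9% of all genes. They were above for DNMT3B and TET1 (31.8% of all genes) and below for DNMT1, HELLS, TDG and MBD3 (34.1%).

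**Figure D2:**
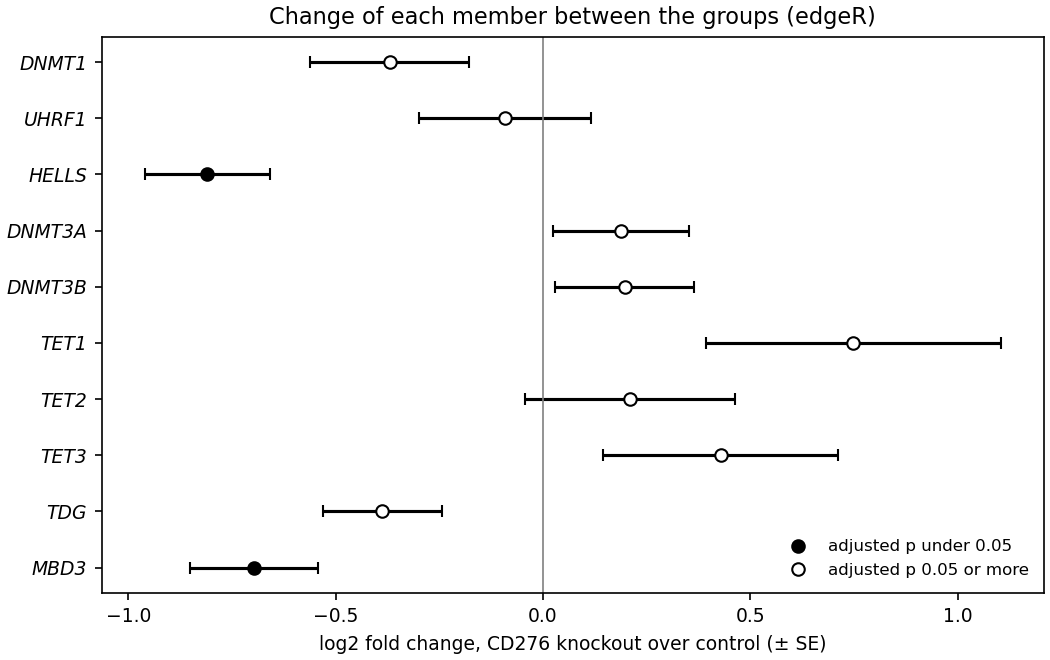
Log2 fold change of the CD276 knockouts over the controls for the 10 genes, with bars of 1 SE from edgeR (2 libraries per group) and filled points for an adjusted p under 0.05. HELLS (-0.81) and MBD3 (-0.70) are filled, and the other 8 genes are open.

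Per kilobase of merged exons in GENCODE 29, the levels ran in the order DNMT1, MBD3, TDG, UHRF1, HELLS, DNMT3A, DNMT3B, TET3, TET2 and TET1 in the controls. DNMT1 averaged 30.3 normalized CPM per kilobase in the knockouts and 39.1 in the controls. MBD3 averaged 20.1 and TDG 22.2 in the knockouts, against 32.6 and 29.04 in the controls, so this pair traded places between the groups. HELLS averaged 7.31 in the knockouts and 12.8 in the controls, and DNMT3A and DNMT3B followed at 5.86 and 4.90 in the knockouts and 5.14 and 4.27 in the controls. The libraries of DNMT3A and DNMT3B overlapped in the knockouts, at 6.55 and 5.17 for DNMT3A and 4.51 and 5.29 for DNMT3B, so that pair of neighbours is not separated there. TET3, TET2 and TET1 came last, at 2.58, 1.11 and 0.346 in the knockouts and 1.92, 0.962 and 0.206 in the controls. The order depends on the length used: per kilobase of the longest transcript, HELLS (14.9 in the knockouts and 26.1 in the controls) stood above UHRF1 (22.5 and 23.97 in the same groups) in the controls only. Summed per kilobase, the 3 DNMT genes exceeded the 3 TET genes 8.84 and 12.6 times in knockout replicates 1 and 3 and 15.2 and 16.2 times in control replicates 1 and 3. Both knockouts were below both controls in this ratio. Knockout replicate 1 had a higher TET sum (5.28 per kilobase, against 3.07 and 3.11 in the controls). Knockout replicate 3 had a lower DNMT sum (35.4, against 46.6 and 50.4 in the controls), and its TET sum, 2.8, was also below both controls. These sums were taken per kilobase of merged exons alone.

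The gap between the knockout libraries was a feature of nearly every member. Of the 10, 9 were higher in knockout replicate 1 than in knockout replicate 3, where 49.8% of all genes were. The median log2 difference of replicate 1 minus replicate 3 was 0.43 over the members and -0.004 over all genes. Relative to the controls, the members had a median of 0.13 for replicate 1 of the knockouts and -0.35 for their replicate 3, on the log2 scale. Among the members the difference ran from -0.23 for DNMT3B to 0.99 for TET3, and between the controls from -0.24 for DNMT3A to 0.16 for TET1. Over all genes the SD of the same difference was 0.65 between the knockouts and 0.43 between the controls, low-count genes included.

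Transcript length and a list of S phase markers moved with this gap. By the longest transcript, 7 members were in the longest of 4 equal groups of genes (4906 bases or more) and 3 in the next, and in that longest group 69.9% of genes were higher in knockout replicate 1, with a median log2 difference of 0.20. In the shortest group (up to 1838 bases) 36% were, with a median of -0.21. All 14 S phase and proliferation markers were higher in knockout replicate 1 than in replicate 3, with a median log2 difference of 0.31. MKI67, named after its values were seen, had the widest difference of the 14 (0.90) and a longest transcript of 12678 bases. It had 258 and 138 normalized CPM in knockout replicates 1 and 3 and 151 and 168 in control replicates 1 and 3. PCNA, which was listed with the writers' partners and not among the 14, lay the other way, with 413 and 438 normalized CPM in knockout replicates 1 and 3. Between the groups these 14 did not move one way: MCM6, a helicase subunit (1.31 ± 0.19), and CCNE2, a cyclin of the start of S phase (0.88 ± 0.25), rose, MCM5, another helicase subunit (-0.54 ± 0.16), fell, and 11 were not called. Their median was -0.10, and 21.4% of them were called, beside 22.8% of all genes. CCNE2 missed the threshold with GC and length offsets (edgeR adjusted p = 0.0505), nuclear protein-coding genes alone (0.0542) and limma voom. MCM5 missed it with library totals alone (edgeR adjusted p = 0.093). Genes on the opposite strand share 37.1% of the exonic bases of CCNE2. MCM7 and RRM2, the most abundant not called, had log2 fold changes of -0.34 ± 0.18 and 0.17 ± 0.17. MCM6 was called without either control (edgeR adjusted p = 0.0461 without replicate 1 and 0.0224 without replicate 3), while MCM5 and CCNE2 were not. Among the members TET1, TET2 and TET3, with transcripts of 9288, 10166 and 11388 bases, had log2 differences of 0.715, 0.799 and 0.993. DNMT3A (9501 bases) had 0.342, MBD3 (5518) 0.300, DNMT1 (5408) 0.515 and HELLS (4987) 0.303. DNMT3B (4336 bases) had -0.232, UHRF1 (4309) 0.638 and TDG (3251) 0.250. The part of length, of GC content and of cell cycle phase in these values was not tested.

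**Figure D3:**
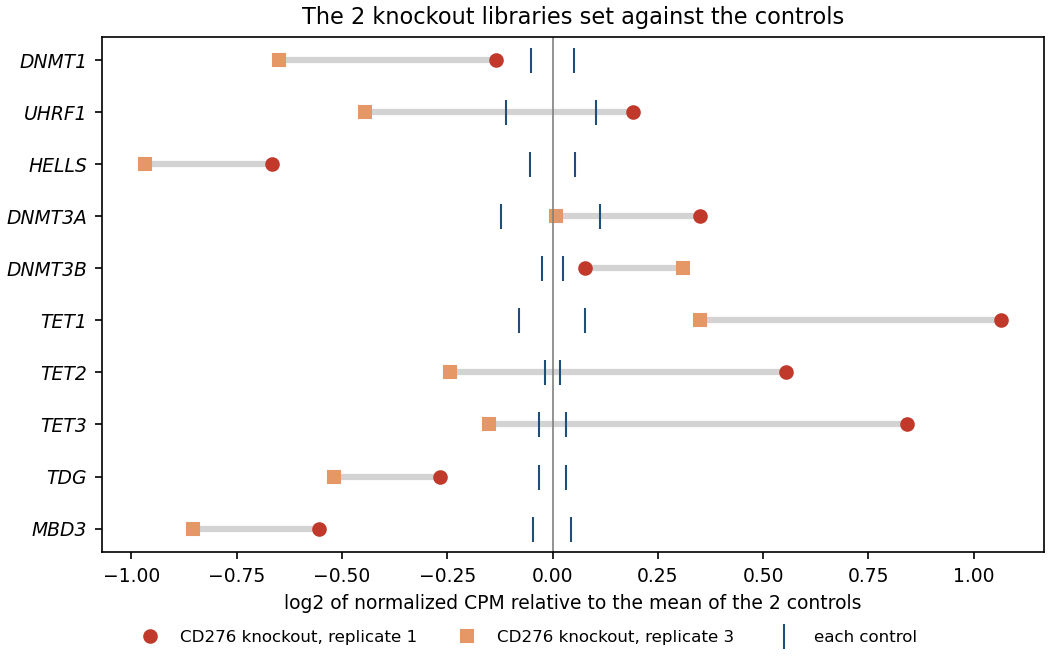
Log2 level of each gene in knockout replicate 1 (circle) and knockout replicate 3 (square) relative to the mean of the 2 controls, which are drawn as vertical ticks. Replicate 1 lies to the right of replicate 3 for every gene but DNMT3B, and the 2 fall on opposite sides of the controls for UHRF1, TET2 and TET3.

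The wider machinery was described by 63 genes in 6 lists, of which 62 were tested and DNMT3L, a cofactor of de novo methylation with 0 to 2 counts, was not. Of the 62, 11 rose and 6 fell (27.4%, beside 22.8% of all genes), and their median was 0.18 on the log2 scale. With library totals alone the split was 17 higher and 5 lower, beside 13% and 9.87% of all genes. With GC and length offsets it was 8 and 12, beside 8% and 16.3% of all genes. Among nuclear protein-coding genes alone it was 7 and 8, beside 9.9% and 11.8% of the genes tested there. DESeq2 called 17 higher and 7 lower, beside 10.3% and 9.99% of all genes. Most calls in these lists rested on having both controls, as most calls over all genes tested did.

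Partners of the writers gave no call, where 22.8% of all genes were called. Of 11 tested, 0 rose and 0 fell, and the median was -0.09 on the log2 scale. Without adjustment edgeR put 2 of them lower and 0 higher at a p under 0.05, beside 20.9% and 17.9% of all genes. DESeq2 called 1 lower and 0 higher, beside 9.99% and 10.3% of all genes. TRIM28, which recruits silencing factors to zinc finger proteins, was at 895 and 924 normalized CPM in the knockouts and 1342 and 1263 in the controls (-0.52 ± 0.17, edgeR adjusted p = 0.062). PCNA, the replication clamp that binds DNMT1, was at 413 and 438 in the knockouts and 508 and 471 in the controls (-0.20 ± 0.15, edgeR adjusted p = 0.369). In both genes the knockouts lay below the controls.

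Other readers moved in both directions. Of 9 tested, 3 rose and 1 fell (44.4%, beside 22.8% of all genes), and the median was 0.38 on the log2 scale. The 3 that rose are zinc finger proteins that bind methylated DNA, ZBTB38, ZBTB4 and ZBTB33 (Kaiso), at 0.80 ± 0.23, 0.56 ± 0.16 and 0.57 ± 0.17. ZBTB33 had 25.7 and 22.2 normalized CPM in the knockouts and 17.02 and 15.2 in the controls, and its edgeR adjusted p was 0.045. MBD6, which carries a domain related to the methyl-CpG binding domain and takes part in histone H2A deubiquitination, fell, with 54.8 and 52.2 normalized CPM in the knockouts and 93.1 and 93.6 in the controls (-0.80 ± 0.13, edgeR adjusted p = 0.00671). MBD1 and MBD2, the most abundant not called, had log2 fold changes of 0.20 ± 0.14 and -0.32 ± 0.14. With GC and length offsets ZBTB33 (0.34) and ZBTB38 (0.53) were no longer called and MBD2 was (-0.56, edgeR adjusted p = 0.0264). Among nuclear protein-coding genes alone ZBTB4 (edgeR adjusted p = 0.063) and ZBTB33 (0.0655) missed the threshold, as did ZBTB33 with upper quartile scaling (0.0502).

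Base excision repair completes the removal begun by TET and TDG. Of its 10 listed genes 3 rose and 2 fell (50%, beside 22.8% of all genes), with a median of 0.20. PARP1, the strand break sensor, was at 1061 and 919 normalized CPM in the knockouts and 519 and 584 in the controls (0.84 ± 0.18, edgeR adjusted p = 0.0138), and the glycosylase NEIL2 also rose (0.67 ± 0.19). XRCC1, the scaffold of the repair complex (-0.72 ± 0.13), and the glycosylase NEIL1 (-0.83 ± 0.16) fell, while APEX1, the endonuclease (0.22 ± 0.14), and SMUG1 (0.12 ± 0.14) were not called. Genes on the opposite strand share 30.5% of the exonic bases of NEIL1 and 17.5% of those of XRCC1, and how their reads were divided is not known.

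Of the 12 NuRD genes that work with MBD3, 1 rose and 1 fell (16.7%, beside 22.8% of all genes), and the median was 0.06. MBD3 itself also fell. CHD3, a helicase of the complex, was at 146 and 106 normalized CPM in the knockouts and 183 and 190 in the controls (-0.57 ± 0.17, edgeR adjusted p = 0.0453). It missed the threshold with RLE scaling (edgeR adjusted p = 0.0578) and with library totals alone (0.114). The histone chaperone RBBP7 rose by 0.45 ± 0.14 on the log2 scale, at the edge of the threshold (edgeR adjusted p = 0.0499; 0.251 with GC and length offsets). HDAC1, the deacetylase (0.47 ± 0.16, edgeR adjusted p = 0.0663), and RBBP4 (0.02 ± 0.14) were not called.

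In the supply of S-adenosylmethionine, the methyl donor, 2 genes rose and 0 fell of 11, with a median of 0.38. The share called was 18.2%, beside 22.8% of all genes. Without adjustment 7 were higher and 1 lower at an edgeR p under 0.05, beside 17.9% and 20.9% of all genes. DESeq2 put 5 of them higher and 0 lower, beside 10.3% and 9.99% of all genes. MAT2A, the synthetase that makes the donor, had 4437 and 2893 counts in the knockouts and 1179 and 1198 in the controls. Its level was 169 and 112 normalized CPM in knockout replicates 1 and 3 and 52.8 and 61.9 in control replicates 1 and 3, a 2.45-fold rise (log2 1.29 ± 0.20, edgeR adjusted p = 0.00635; 0.0618 without control replicate 1). Both knockouts exceeded both controls, replicate 1 by more. A gene on the opposite strand shares 12.4% of the exonic bases of MAT2A. AHCYL1, a relative of the hydrolase that clears S-adenosylhomocysteine, rose by 0.73 ± 0.13 on the log2 scale. SHMT2 of mitochondrial one-carbon metabolism (0.46 ± 0.18) and the hydrolase AHCY (0.38 ± 0.16) were not called.

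Genes of 2-oxoglutarate supply and TET partners moved both ways, with 2 higher and 2 lower of 9 and a median of 0.47. Those called made up 44.4% of the list, beside 22.8% of all genes. IDH3A, a subunit of the mitochondrial isocitrate dehydrogenase, was at 68.4 and 41.3 normalized CPM in the knockouts and 22.3 and 24.01 in the controls (1.24 ± 0.23, edgeR adjusted p = 0.00958; 0.0775 without control replicate 1). IDH1, its cytosolic NADP-dependent counterpart, rose by 0.68 ± 0.15. OGT, the glycosyltransferase that binds TET proteins, fell, with 109 and 61.1 normalized CPM in the knockouts and 174 and 164 in the controls (-0.99 ± 0.24, edgeR adjusted p = 0.0225). D2HGDH, which oxidises D-2-hydroxyglutarate to 2-oxoglutarate, fell by 0.68 ± 0.13, and OGDH (0.47 ± 0.15) and IDH2 (0.27 ± 0.16) were not called. Genes on the opposite strand share 38.9% of the exonic bases of IDH3A and 18.5% of those of D2HGDH.

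**Figure D4:**
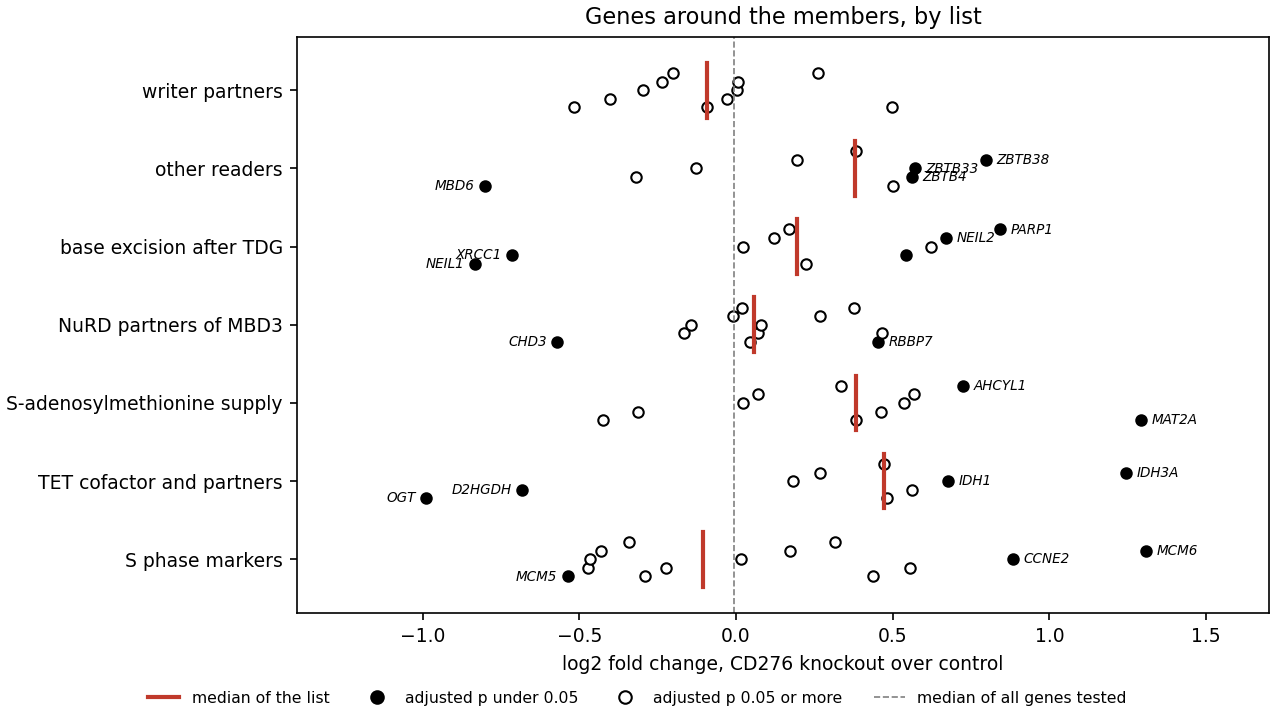
Log2 fold change of the CD276 knockouts over the controls for each tested gene of 6 lists of the methylation machinery and of the S phase markers, with filled points for an edgeR adjusted p under 0.05, a red bar at each list's median and a dashed line at the median of all genes tested (-0.005). MAT2A (1.29) and IDH3A (1.24) lie farthest right among the methylation lists, and OGT (-0.99) farthest left.

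By the distance between profiles (log2 CPM centred on each gene's mean over the 4 libraries, 71 other members and listed genes), the genes nearest to DNMT1 were SETDB1 (distance 0.125), CHD3 (0.204) and CHD4 (0.209). HELLS was nearest to MBD3 (0.177), MBD6 (0.184) and NEIL1 (0.230), and MBD3 to CHD3 (0.164), HELLS (0.177) and D2HGDH (0.186). With 4 libraries such likeness is a description only.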

How the data were processed

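Poly(A)-selected TruSeq RNA of 4 libraries gave paired-end reads, according to the labels' protocols. The authors deposited raw counts per gene, made with Trimmomatic 0.36, STAR 2.5.2b and featureCounts of Subread 1.5.2 on GRCh38, per the submitters' processing notes. How strand and multi-mapping reads were handled, and which annotation release served, is not stated in those notes, so antisense and overlapping genes can share counts. The 486 rows without a name, with 0.0191% to 0.029% of a library's counts, were left out.

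After filterByExpr and trimmed mean of M-values scaling, counts were tested across all 18043 genes with edgeR 4.0.16 in R 4.3.3 (robust quasi-likelihood fit with the group alone as a term, 2 residual degrees of freedom, Benjamini-Hochberg adjustment). The SE is the log2 fold change divided by the square root of F. One CPM stood for 20.1 to 25.8 counts. The fit was also run on simulated counts with the same spread in both groups. The knockouts here spread more than the controls, so that run does not vouch for these calls. Gene positions, lengths, GC content and exonic overlap came from GENCODE 29 on GRCh38, by symbol, with values for 17774 of the genes tested.

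The members, the lists and the tests were chosen with earlier results of these data known; the lists came from general knowledge, and all 106 list genes matched the table by name. The text names all members, CD276, the called genes of each list (at most the 4 with the smallest p) and the 2 most abundant not called; MKI67 was named after its values were seen. The alternatives were 3 other scalings, 2 other filters, DESeq2 1.42.0, limma 3.58.1 voom, robust=FALSE, a replicate block, nuclear protein-coding genes alone, GC and length offsets, an adjusted p under 0.01 and leaving out each library. With 1 library left out, 1 residual degree of freedom remains and the fit takes the lone library to vary as the other group does. No label gives a batch.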

Additional observations from a re-analysis of the deposited data

How the results depend on the processing

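The 51 genes the text names by rule kept their direction and side of the threshold in 514 of 560 values from alternatives that used all libraries; 18 lost the call, 19 gained it and 9 changed sign. HELLS and MBD3 stayed called in all of these. Members called numbered 4 with GC and length offsets (DNMT1 and TDG added) and 1, HELLS, at an adjusted p under 0.01, against 2 as reported; leaving out 1 library gave 0 to 7. Listed pathway genes called numbered 5 at that stricter threshold, and 0 to 45 with 1 library left out, against 17. All genes called numbered 1036 at the stricter threshold and 312 (without control replicate 1) to 9198 (without knockout replicate 3) against 4111. Without a control 45 of 102 gene values lost the call, and without a knockout 30 of 102 gained it; the cause was not tested. Library totals alone moved all genes by a median of 0.11 on the log2 scale and gave 2340 higher and 1781 lower, and GC and length offsets gave 1443 and 2933, against 1780 and 2331.

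Sign changes were all in genes not called as reported. With library totals UHRF1 turned to 0.0268. With GC and length offsets TET2 turned to -0.0343, MBD1 to -0.0033, RRM2 to -0.0571, FOLH1 to -0.0879 and RBBP4 to -0.231. RBBP4 was also -0.0082 with upper quartile scaling, -0.0189 with at least 50 counts and -0.0168 with nuclear protein-coding genes. With 1 library left out, the values ran from -0.434 to 0.261 for UHRF1, from -0.233 to 0.622 for TET2, from -0.14 to 0.909 for TET3, from -0.0112 to 0.0852 for RBBP4, from -0.0216 to 0.418 for RRM2 and from -0.931 to 1.37 for COL1A2.

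Same-numbered libraries did not deviate together (r = -0.015 across genes), so the shared numbers 1 and 3 were not taken as pairs. With the replicate block the calls were 4843 of all genes, 2 members and 18 listed pathway genes. Among the 10 members TET1 had the fewest counts, 35 to 105.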
